A study of Mus musculus with 27 samples.

Results

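Ground state pluripotency is the state that mouse embryonic stem cells (mESCs) take on in serum-free 2i medium, in which inhibitors of the kinases GSK3 and MEK are combined with leukaemia inhibitory factor (LIF). Blocking MEK shuts off the ERK signal that pushes cells towards differentiation, and blocking GSK3 stabilises beta-catenin and so relieves repression by Tcf7l1. Cells in this state are known for homogeneous expression of pluripotency factors such as Nanog, Klf4, Esrrb and Tfcp2l1, and for low DNA methylation. In serum with LIF (ESLIF medium), mESCs are more heterogeneous and part of them carry marks of lineage priming.

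The cells described here are the 771 mESCs, of 4147 in all, that the authors annotated as 1 state and that are called Ground State cells below. They were chosen as the cells of the annotated state with exactly that number of cells. The deposited name of the state is Core Pluripotency, and the study's figures call the state of this size Ground State Pluripotency. All 771 cells lay in a single Leiden cluster, which held 0 other cells. Per-cell summaries were analysed here, not gene-level values, so Nanog, Klf4, Esrrb and Tfcp2l1 could not be checked in these cells and the name rests on the authors' annotation.

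The mESC line used, B6, derives from a cross of the strains 129S1/SvImJ and C57BL/6. Each of the 6 pre-culture conditions was sorted from 1 cell suspension into 2 plates of 384 wells. Condition 1 stayed in ESLIF. Condition 2 spent all 96 h in 2i, whose inhibitors the labels spell CHIR99021 and PD032509. Condition 3 moved from ESLIF into 2i for its final 48 h, and condition 4 for its final 24 h. Conditions 5 and 6 were in 2i for 48 h and 24 h and went back to ESLIF for the same time before collection. The plates are therefore technical replicates of 1 culture per condition, and their spread does not include the spread between cultures. Plates had 284 to 365 listed cells and median totals of 6845 to 13669 deduplicated counts per cell. The same set of well barcodes was used on each plate, and 145 barcode numbers occurred on all 12 plates, so cells were identified by plate and barcode together.

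The Ground State was mostly a state of condition 2. Of its 771 cells, 654 (84.8%) came from condition 2, 88 from condition 3, 25 from condition 4, 1 each from conditions 1 and 5, and 2 from condition 6. On the condition 2 plates, 338 of 363 cells (93.1%, 95% Wilson interval 90.0 to 95.3) and 316 of 351 cells (90.0%, 86.4 to 92.7) were Ground State cells. On the condition 3 plates the share was 30 of 364 (8.24%, 5.83 to 11.5) and 58 of 345 (16.8%, 13.2 to 21.1). These intervals of the condition 3 plates did not overlap, although both plates held cells of the same suspension. On the condition 4 plates the share was 13 of 354 (3.67%, 2.16 to 6.18) and 12 of 284 (4.23%, 2.43 to 7.24). In the 3 conditions that ended in ESLIF, 4 of 2086 cells (0.192%, 0.0746 to 0.492) were Ground State cells. Of these 6 plates, 3 had none, which allows a share of up to 0.836% to 0.852% of a plate's cells when 3 cells are taken as the limit of a count of 0, and 1.06% to 1.08% by the Wilson upper limit. Intervals and limits cover counting error only, and shares depend on the authors' clustering of these same cells, so no test was made of them.

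**Figure D1:**
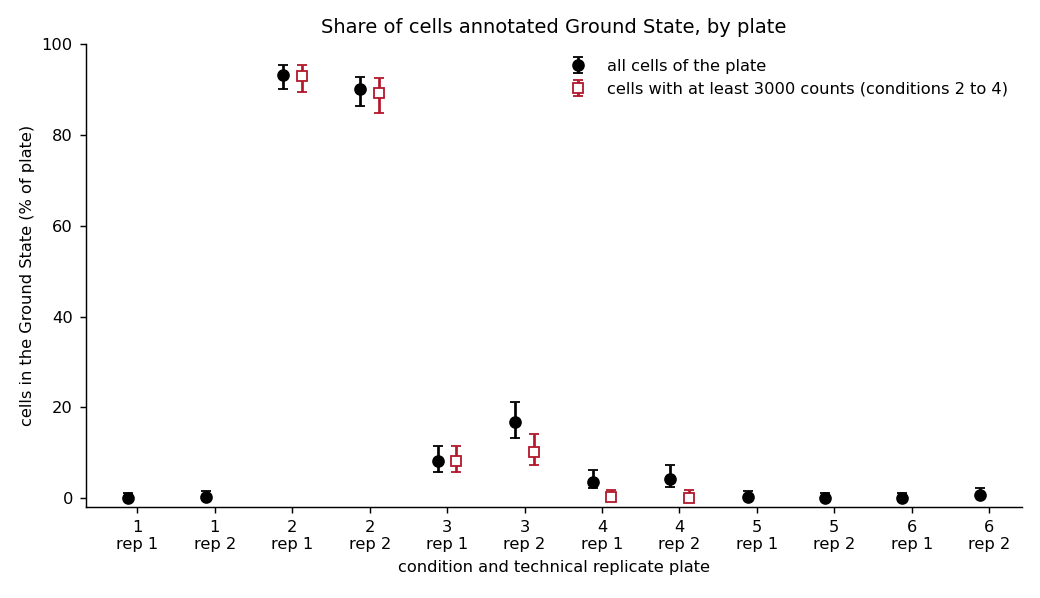
Share of the cells of each plate that were annotated Ground State (y axis, percent) for the 12 plates (x axis, condition and technical replicate), with 95% Wilson intervals as bars. Black circles show all cells and open red squares the cells with at least 3000 counts in conditions 2 to 4. The condition 2 plates sit near 90%, and the higher condition 3 plate drops from 16.8% to 10.2% with that minimum.

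Of the 60 condition 2 cells outside the state, 46 were Naive Pluripotency cells, 19 on the first plate and 27 on the second. Of the 15 nearest cells on the UMAP around these 60 cells, 53.4% came from condition 3 and 26.6% from condition 2. By state, 63.3% of these nearest cells were Naive Pluripotency and 14.3% Ground State cells.

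Ground State cells of condition 4 and of the second condition 3 plate had fewer counts than other cells of their plates, and those of condition 2 and of the first condition 3 plate had about as many. On the condition 2 plates they had a median of 7631.5 and 9215 counts per cell, next to 7024 and 8567 for the other cells of the same plates. On the condition 3 plates the medians were 6905 and 3122.5 for Ground State cells and 7407 and 9395 for other cells. On the condition 4 plates they were 795 and 564.5 for Ground State cells and 12139 and 8297.5 for other cells. The gap was widest in condition 4. Other cells had 3.01 times the median counts of Ground State cells on the second condition 3 plate, and 15.3 and 14.7 times on the condition 4 plates. The 4 Ground State cells of the conditions that ended in ESLIF had 702, 460, 531 and 664 counts.

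Genes detected per cell followed the counts. The medians of Ground State cells were 3754 and 4113 genes in condition 2, 3618.5 and 2014 in condition 3, and 743 and 517.5 in condition 4. Other cells of the same plates had 3523 and 4034, 3720 and 4157, and 4870 and 3959 genes. Only in condition 2 were the medians of Ground State cells higher on both plates.

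Over the 6 plates of conditions 2, 3 and 4, the difference of the medians, Ground State minus other cells, averaged -1.55 ± 1.93 in log2 counts (SD, n = 6 plates; exact two-sided sign-flip test, p = 0.219, 0.328 after Benjamini-Hochberg adjustment over 3 measures). In log2 genes it averaged -1.10 ± 1.40 (SD, n = 6; exact p = 0.188, adjusted 0.328). Neither difference passed the threshold of 0.05. Since both plates of a condition came from 1 culture, these 6 plates stand for 3 cultures, and with the condition as the unit the adjusted p was 0.75 for both (exact sign-flip test, n = 3, where the smallest possible p is 0.25). The difference in log2 counts was 0.12 and 0.11 on the condition 2 plates, -0.10 and -1.59 on the condition 3 plates, and -3.93 and -3.88 on the condition 4 plates. The plates thus differed in sign between conditions, and the condition 3 plates, technical replicates of each other, differed widely in size.

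**Figure D2:**
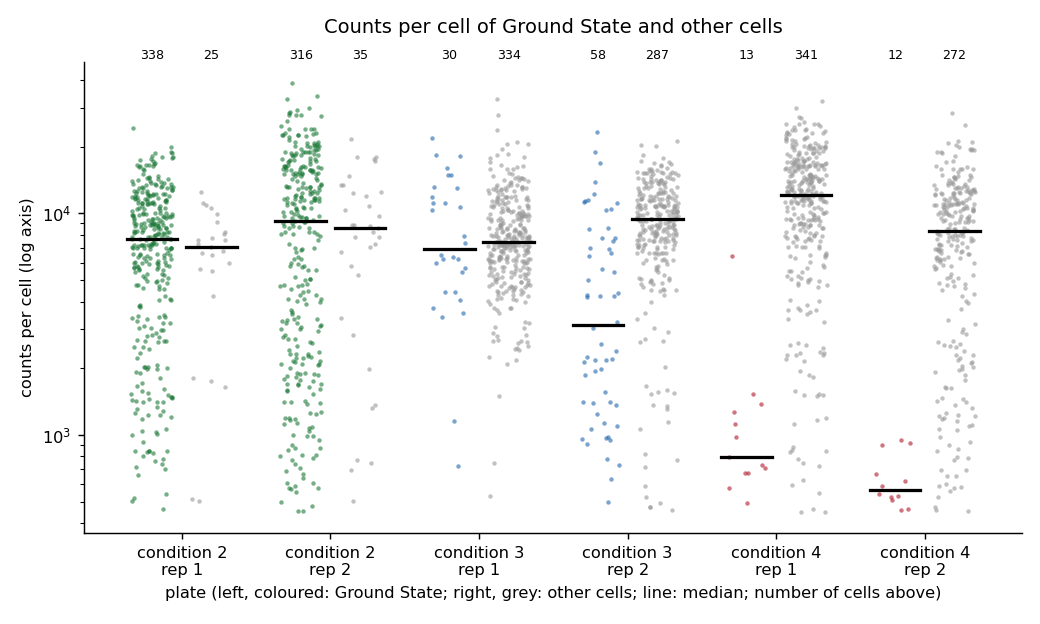
Counts per cell (y axis, log scale) of Ground State cells (coloured) and other cells (grey) on the 6 plates of conditions 2, 3 and 4, with medians as lines and numbers of cells on top. In condition 2, Ground State cells cover the range of other cells and reach higher, up to 24200 and 38552 counts next to 12469 and 21539. In condition 4, apart from 1 cell of 6407 counts, Ground State cells lie under 3000 counts.

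Among conditions 2 to 4, with both plates pooled, the part of the state made up of shallow cells was smallest in condition 2 and largest in condition 4. The first condition 3 plate alone was lower than condition 2. There, 1 of 30 Ground State cells (3.33%) had under 1000 counts, next to 5.62% and 8.86% on the condition 2 plates. In condition 2, 47 of 654 Ground State cells (7.19%) and 6 of 60 other cells (10.0%) had under 1000 counts. In condition 3 this was 10 of 88 (11.4%) and 11 of 621 (1.77%). In condition 4 it was 20 of 25 (80.0%) and 34 of 613 (5.55%). With the bound at 3000 counts, 164 of 654 Ground State cells (25.1%) and 13 of 60 other cells (21.7%) of condition 2 were shallow. On the second condition 3 plate, 28 of 58 Ground State cells but 24 of 287 other cells were, and on the first 2 of 30 and 18 of 334. In condition 4, 24 of 25 Ground State cells and 99 of 613 other cells (16.2%) had under 3000 counts.

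Read the other way, the share of cells in the state was about level over the classes of counts in condition 2. It was lower in classes of higher counts in condition 4 and, with both plates pooled, in condition 3. The condition 3 plates differed in this. With minimums of 0, 3000 and 5000 counts, the share was 8.24%, 8.14% and 7.48% on the first. On the second it was 16.8%, 10.2% and 8.52%. Among condition 2 cells it was 88.7% (47 of 53) under 1000 counts, 94.4% from 1000, 93.1% from 3000, 87.9% from 6000 and 94.4% from 12000 counts on, each class ending where the next began. Among condition 3 cells it was 47.6% (10 of 21), 39.2%, 15.3%, 6.86% and 9.70% (13 of 134) in the same classes. Among condition 4 cells it was 37.0% (20 of 54), 5.80%, 0%, 0.457% and 0%. In the conditions that ended in ESLIF, all 4 cells fell in the lowest class, 4 of 85 (4.71%), with 0 of 2001 cells of at least 1000 counts.

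**Figure D3:**
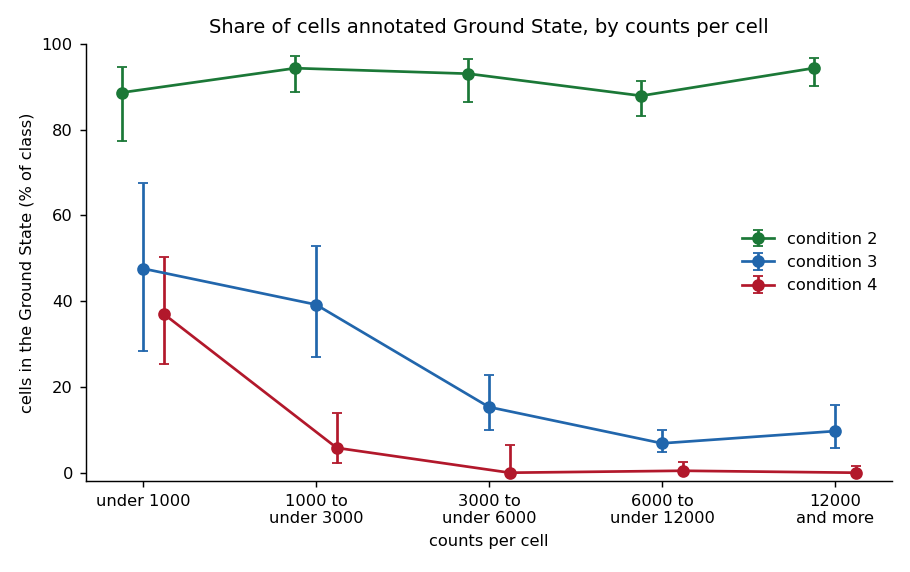
Share of cells annotated Ground State (y axis, percent, 95% Wilson intervals) by class of counts per cell (x axis) in conditions 2, 3 and 4. Condition 2 stays between 87.9% and 94.4%, whereas conditions 3 and 4 go from 47.6% and 37.0% in the lowest class to 9.70% and 0% in the highest. Both plates of a condition are pooled. On the first condition 3 plate alone the share was 8.24% of all cells and 8.14% of cells with at least 3000 counts.

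With at least 3000 counts per cell, the plates of condition 3 came close to each other, at 28 of 344 (8.14%, 5.69 to 11.5) and 30 of 293 (10.2%, 7.27 to 14.2). Condition 4 then kept 1 Ground State cell of 515 (0.194%, 0.0343 to 1.09), and condition 2 kept 490 of 537 (91.2%). This minimum was chosen after seeing the data. Condition 3, with 58 such cells, was thus the only condition besides condition 2 in which more than 1 Ground State cell had 3000 counts or more. The authors regressed the counts out before clustering, and their part in the annotation of these cells was not tested.

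Mitochondrial reads took a larger part of Ground State cells than of other cells in condition 2 and a smaller part in condition 4. The medians on the condition 2 plates were 6.72% and 6.05% in Ground State cells and 5.48% and 4.77% in other cells. The 19 and 27 Naive Pluripotency cells among those other cells had medians of 6.31% and 4.77%. Against them, the gap on the first plate was smaller. On the condition 3 plates they were 6.22% and 5.12% in Ground State cells and 5.31% and 5.15% in other cells. On the condition 4 plates they were 4.99% and 5.05% in Ground State cells and 5.66% and 5.68% in other cells. Single cells overlapped widely in every pair, with middle 50% ranges of 5.70 to 7.83% for Ground State and 2.59 to 7.49% for other cells on the first condition 2 plate. The difference averaged 0.350 ± 0.908 percentage points over the 6 plates (SD; 3 plates higher and 3 lower; exact two-sided sign-flip test, p = 0.438, adjusted p = 0.438). With only the other large states as comparison, the difference averaged 0.259 percentage points (exact sign-flip test, adjusted p = 0.469). The difference did not pass the threshold, nor with the condition as the unit (exact sign-flip test, adjusted p = 0.75, n = 3).

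Among cells of at least 3000 counts, with both plates pooled, the median was 6.37% in the 490 Ground State cells and 4.92% in the 40 Naive Pluripotency cells of condition 2. These cells had median counts of 10052 and 9003.5, so their depth was not matched. In condition 3 the mitochondrial median was 5.65% in 58 Ground State cells and 5.24% in 525 Naive Pluripotency cells, with median counts of 7636.5 and 8625. Across the whole state, 18 of 771 cells had over 10% mitochondrial reads, and the highest value was 19.4%. On plates with at least 20 of its cells, the state's medians ran from 5.12% to 6.72%. The medians of Naive Pluripotency ran from 4.77% to 5.31%, of Primed Pluripotency from 4.50% to 7.89% and of Ectoderm Priming, the state of most condition 1 cells, from 6.46% to 8.03%, so the Ground State overlapped each of them.

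**Figure D4:**
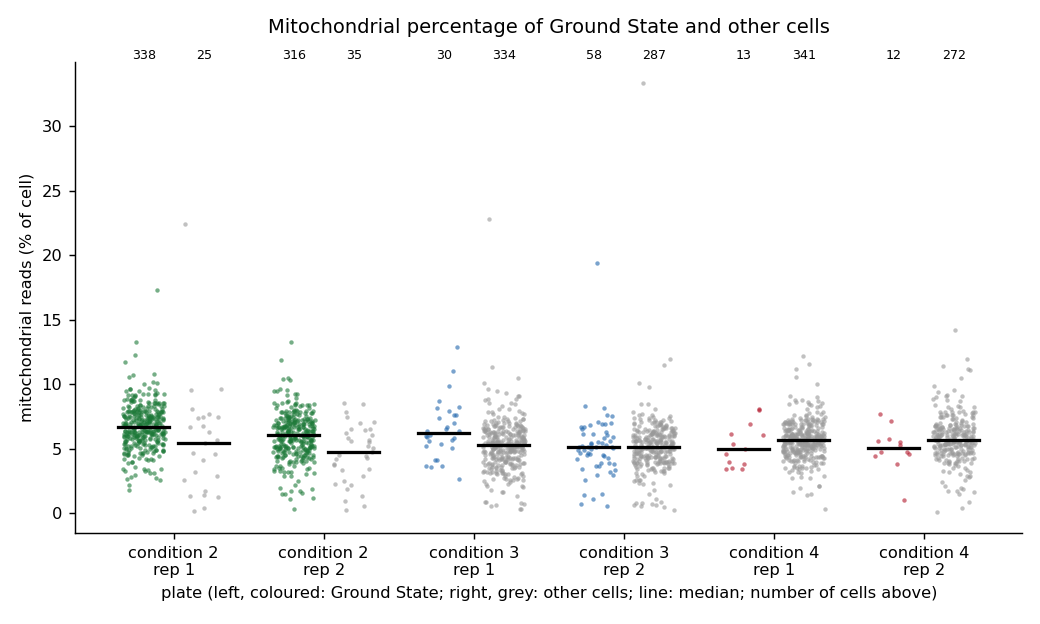
Mitochondrial percentage per cell (y axis) of Ground State cells (coloured) and other cells (grey) on the 6 plates of conditions 2, 3 and 4, with medians as lines and numbers of cells on top. The Ground State median is higher on both condition 2 plates (6.72% and 6.05%) and lower on both condition 4 plates (4.99% and 5.05%), with wide overlap of single cells.

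Members of the state from conditions 3 and 4 were also set against those from condition 2, plate by plate. The mean of the plate medians was 10.8 in log2 counts for the 4 plates of conditions 3 and 4 and 13.0 for the 2 plates of condition 2, a difference of -2.25 or 4.76-fold fewer counts (exact two-sided permutation test, p = 0.133). In log2 genes the difference was -1.60, or 3.04-fold fewer genes (exact permutation p = 0.133). In mitochondrial percentage it was -1.04 percentage points, 5.34% against 6.38% (exact permutation p = 0.133). The smallest p that 4 against 2 plates allow is 0.0667, so no difference could have passed 0.05, and the plates stand for 2 cultures against 1. The conditions differed within this contrast: the mean of the plate medians in log2 counts was 12.2 in condition 3 and 9.39 in condition 4. The difference in log2 counts ran from -2.91, without the first condition 3 plate, to -1.70, without the second condition 4 plate, and was -0.48 among cells of at least 3000 counts. For counts and genes, both condition 2 plates were above all 4 others. For the mitochondrial percentage, the first condition 3 plate, at 6.22%, lay between the condition 2 plates.

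The cell cycle scores and phases were computed by the authors from genes of the clustered cells, so they describe the state and were not tested. Of the 771 Ground State cells, 13 (1.69%, 95% Wilson interval 0.988 to 2.86) were called G1, 393 (51.0%) S and 365 (47.3%) G2M. A phase was G1 only where both scores were at or below 0, which held for 47 of the 4147 mESCs, and was otherwise that of the higher score. The share in G1 was small in the larger mESC states. On plates with at least 20 cells of a state it ran from 1.58% to 3.33% in the Ground State, from 0 to 3.70% in Naive Pluripotency and from 0 to 0.797% in Epiblast-like cells. The small states differed: 15 of 45 Endoderm Progenitors (33.3%, 21.4 to 47.9) and 2 of 28 Mesoderm Progenitors (7.14%) were in G1. Mouse embryonic stem cells in serum are known for a short G1 phase, but 84.8% of the Ground State cells came from condition 2, in 2i. The part of G1 length in these shares, which depend on the calling rule, was not tested.

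Both plates of condition 2 had nearly the same phases, with 45.9% and 47.5% of Ground State cells in G2M and 52.4% and 50.9% in S. In condition 3, 17 of 30 (56.7%) and 32 of 58 (55.2%) were in G2M. In condition 4, 3 of 13 (23.1%) and 5 of 12 (41.7%) were. Each condition was 1 culture, so these shares are given without a comparison.

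The median S score of Ground State cells was 0.0459 and 0.0472 on the condition 2 plates, 0.0430 and 0.0417 on the condition 3 plates, and 0.0350 and 0.0609 on the condition 4 plates. The median G2M score was 0.0407 and 0.0484, 0.0483 and 0.0466, and 0.0266 and 0.0444 in the same order. The condition 4 plates differed most from each other, with 13 and 12 cells behind their values. Against other cells of the plate, the G2M score of Ground State cells was higher on 5 of 6 plates, by 0.00646 ± 0.0137 on average (SD, n = 6 plates). The S score was higher on 3 of 6 plates, by 0.00515 ± 0.0124. These averages were small beside their spread and moved when 1 plate was left out, from 0.00316, without the second condition 2 plate, to 0.0112, without the first condition 4 plate, for the G2M score. For the S score they moved from 0.00204, without the second condition 4 plate, to 0.00789, without the first.

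Inside the state, the cells of highest depth stood apart in phase, but a link of depth and phase was not particular to it. Cells called G2M and S had median counts of 8137 and 6843 in the Ground State and 9550 and 8111 in Naive Pluripotency. The medians were 11532 and 8866 in Epiblast-like, 12780 and 10634 in Primed Pluripotency and 8322 and 6595 in Ectoderm Priming cells. Of the Ground State cells with at least 12000 counts, 64.1% were in G2M, next to 39.9% at 6000 to under 12000 counts and 39.8% at 3000 to under 6000 counts. Below that, 47.5% were in G2M at 1000 to under 3000 counts and 38.3% under 1000 counts. The median G2M score was 0.0737 in the deepest class and 0.0356 in the class below it. The median S score was highest at 6000 to under 12000 counts, at 0.0544. Of the 13 Ground State cells in G1, 10 had under 3000 counts. Among cells of at least 3000 counts, 47.8% of Ground State cells of condition 2 and 55.2% of condition 3 were in G2M, next to 16 of 40 and 230 of 525 (43.8%) Naive Pluripotency cells. The part of counts per cell in the differences of phase between plates and conditions was not tested.

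On the UMAP the state was compact for condition 2 and mixed at its edges for the others. Of the 15 nearest cells of a Ground State cell, 95.5% were Ground State cells on average, where these made up 18.6% of all remaining cells. The share of neighbours from the own state was 92.4% for Naive Pluripotency, 94.2% for Epiblast-like, 97.5% for Ectoderm Priming and 98.7% for Primed Pluripotency cells. The UMAP was made from the genes that also gave the clusters, so these shares are a description with no test.

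By plate, Ground State cells made up 98.4% and 97.7% of the neighbours in condition 2, 75.6% and 85.1% in condition 3, and 75.4% and 86.1% in condition 4. All 15 neighbours were in the state for 609 of 654 cells of condition 2 (93.1%), 33 of 88 of condition 3 (37.5%) and 9 of 25 of condition 4 (36.0%). The other neighbours differed between the conditions. On the condition 3 plates, 22.2% and 8.05% of neighbours were Naive Pluripotency cells and 2.22% and 6.90% Epiblast-like cells. On the condition 4 plates, 14.9% and 12.8% were Epiblast-like and 0.513% and 0.556% Naive Pluripotency cells. Naive Pluripotency and Epiblast-like are the states of most other cells of conditions 3 and 4.

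Neighbours came largely from the own condition in condition 2, at 92.3%, with 54.4% and 48.9% from the own plate. In condition 3, 44.8% of neighbours were condition 2 cells and 46.4% condition 3 cells. In condition 4 the neighbours were 37.3% condition 2, 26.4% condition 3 and 30.1% condition 4 cells. Neighbours also resembled a cell in depth: the neighbours of condition 4 Ground State cells had a median of 981 counts, and those of condition 2 cells 9068 counts. Within condition 2, Ground State cells under 3000 counts had neighbours with a median of 1922.5 counts, and those of at least 3000 counts had neighbours with 9771 counts. Of the neighbours of Ground State cells under 3000 counts, 42.2% in condition 3 and 38.9% in condition 4 were condition 2 cells. The 58 condition 3 cells of at least 3000 counts had neighbours with a median of 7051.5 counts, of which 79.4% were Ground State and 15.6% Naive Pluripotency cells.

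**Figure D5:**
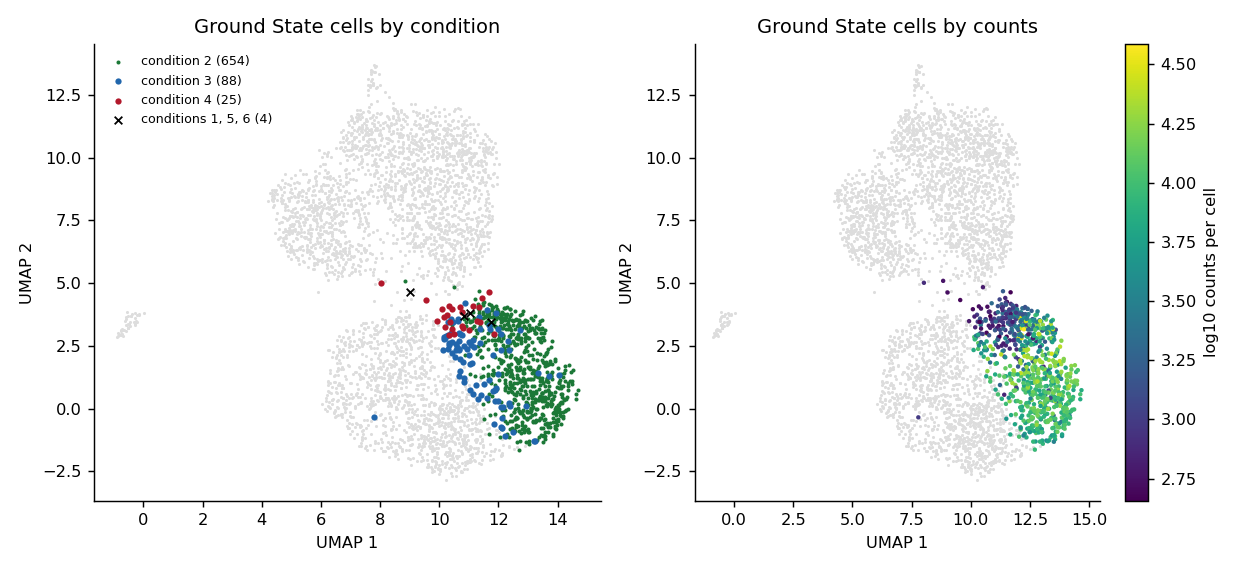
UMAP positions of the 4147 mESCs (grey, axes without unit), with the 771 Ground State cells coloured by condition on the left and by log10 counts per cell on the right. Cells of conditions 4, 1, 5 and 6 gather at the end of the state where counts are low, and cells of condition 3 lie there and along the border towards the grey cells.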

How the data were processed

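CEL-seq2 libraries of mESCs from 12 plates were analysed from the per-cell table. Per the paper's methods, the authors mapped reads with STAR (2.5.3a) to a GRCm38 genome masked for strain differences, counted and deduplicated them, removed cells in Scanpy by reads, genes and mitochondrial share, regressed out counts, mitochondrial share and phase, and clustered with Leiden. The total count per cell deposited by the authors is not normalised. The minimum of 500 reads stated by the authors is not a bound on these totals, since 28 cells, 9 of them Ground State, were listed under 500 counts. The mitochondrial value deposited by the authors is a fraction, printed here as percent. Its product with the total was whole (within 0.01) in 2.03% of cells, so its denominator is another total. The S and G2M score and the UMAP position deposited by the authors have no unit. The read count per library in the sequencing report deposited by the authors ranged from 8696308 to 33458578. In that report, 3 libraries match no sample and were left out.

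Samples were grouped by GEO's labels. Medians per plate were compared with an exact sign-flip test over 6 plates (at least 5 cells on either side), adjusted over 3 measures, and with an exact permutation of 4 against 2 plates, both tested on simulated data. Scores, phases, neighbours (15 nearest on the UMAP) and shares got no test. Alternatives were means, 1000 or 3000 counts as minimum, 20% mitochondrial reads as maximum, 10 cells as minimum, other comparison states, conditions as units, classes of counts, other neighbour numbers, a replicate block and leaving out each plate. For members compared between conditions, a further alternative took members minus other cells of the same plate. Without gene-level values no gene was given a value, cells were not thinned to equal depth, and doublets were not called here. The members and lists were chosen with earlier results of these data known. Analyses used Python 3.11.15, numpy 2.4.6, pandas 2.3.3 and scipy 1.17.1.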

Additional observations from a re-analysis of the deposited data

Results flagged for a closer look

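For some measures, the difference between Ground State and other cells had one sign on both plates of condition 2 and the opposite sign on both plates of another condition. The differences between conditions were not tested. Most other cells were Naive Pluripotency cells in conditions 2 and 3 and Epiblast-like cells in condition 4. Against Naive Pluripotency cells alone, the signs for counts, genes and S score reversed on the second condition 2 plate but not on the first. Medians of Ground State and Naive Pluripotency cells on the second were 9215 and 9741 counts, 4113 and 4304 genes, and S scores of 0.0472 and 0.0503. On the first they were 7631.5 and 7594, 3754 and 3613, and 0.0459 and 0.0297. In log2 counts per cell, the mean difference in condition 4 minus that in condition 2 was -4.02, and for condition 3 minus condition 2 it was -0.96. In log2 genes per cell these values were -2.88 and -0.60. In mitochondrial percentage the mean difference in condition 4 minus that in condition 2 was -1.91 percentage points. In the S score the mean difference in condition 3 minus that in condition 2 was -0.0176. The S score differences were 0.0163 and 0.0107 on the condition 2 plates and -0.00185 and -0.00637 on the condition 3 plates. In condition 4, 25 Ground State cells stand behind these values, 20 of them under 1000 counts.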

How the results depend on the processing

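Under alternatives other than leaving out a plate, 80 values were recomputed. Of these, 73 kept their direction and, where tested, their side of the threshold, or moved by less than their error. This count says little about stability, since many of the tests could not have passed the threshold. The smallest possible p was 0.0667 for 4 against 2 plates, 0.111 with the replicate block and 0.25 with conditions as units. It was 0.0625 for sign flips over 5 plates and 0.125 over 4. Values were unchanged by the minimum of 10 cells, the phase called again from the scores, the block and conditions as units. With at least 3000 counts, chosen after seeing the data, the mean difference between Ground State and other cells reversed to 0.061 in log2 counts and 0.029 in log2 genes (exact sign-flip, adjusted p = 0.875 for both). The condition 4 plates then had too few Ground State cells to enter, and the cause of the reversal was not tested. The share of cells in the state moved to 9.11% in condition 3 and 0.194% in condition 4 with that minimum, and to 0.856% in condition 4 with at least 1000 counts. The share of G2M cells of the state in condition 4 moved to 100% with at least 3000 counts, where 1 cell remained. The share of neighbours in the state moved to 93.3% in condition 4 with at least 1000 counts.

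Leaving out each plate in turn kept the direction of all tested differences. None passed the threshold, but none could have. The smallest possible p was 0.0625 for sign flips over 5 plates, and already 0.0667 for 4 against 2 plates. The differences between Ground State and other cells ran from -1.88 to -1.07 (log2 counts), -1.34 to -0.74 (log2 genes) and 0.165 to 0.556 percentage points (mitochondrial). The difference in G2M score ran from 0.00316 to 0.0112 and was 0.00209 with means over cells, and that in S score ran from 0.00204 to 0.00789. Members of conditions 3 and 4 differed from those of condition 2 by -2.91 to -1.70 in log2 counts. The share of cells in the state ran from 8.24% to 16.8% in condition 3. The share of neighbours in the state ran from 97.3% to 98.3% in condition 2, 74.9% to 85.2% in condition 3 and 72.3% to 86.7% in condition 4. With the replicate number as a block, the differences of -2.25 (log2 counts), -1.60 (log2 genes) and -1.04 percentage points between members of conditions 3 and 4 and of condition 2 gave exact permutation p-values of 0.222, 0.222 and 0.111, where 0.111 is the smallest possible. The sign of replicate 1 minus replicate 2 was the same in all 3 conditions for 0 of 3 measures. Counts and genes had the same signs as each other, so so few values cannot show whether the replicate numbers pair the plates.

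With 6 plates the sign-flip test can reach 0.0313, and with 5 plates no less than 0.0625. The 25 cells of condition 4 and their low counts limit what their phases and scores can show.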
